A study of Mus musculus with 21 samples.

Results

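Wild type whole ovary was set against a reference RNA on 5 of the 21 arrays of the series, which described gene expression in the mouse gonads. These arrays were chosen by their labels, with ovary RNA in one channel and the universal mouse reference RNA of Stratagene in the other. Ovary was in the first channel on 3 arrays and in the second on 2. A further 4 arrays carried wild type whole testis against the same reference and 4 carried ovary against testis, and they serve here to show where the ovary differs. The labels state neither strain, age nor cycle stage, nor whether the arrays held RNA of separate animals, so the spread between arrays may be technical. A reference of this kind is a pool of RNA from cultured mouse cell lines, so each ratio sets an organ against cultured cells.

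The ovary holds oocytes enclosed in follicles, whose granulosa and theca cells make steroid hormones and the signals that carry the oocyte to ovulation. After ovulation the follicle becomes a corpus luteum, a gland that takes up cholesterol from lipoproteins and turns it into progesterone. Around follicles and corpora lutea lie stroma, blood vessels, leukocytes and a surface epithelium.

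The values deposited by the authors are taken here as log2 ratios, although the labels state neither the base nor which source is the numerator. Ovary over reference is the likely direction, because the titles name ovary first. The oocyte genes Gdf9, Zp2 and Zp3, chosen as anchors for the sign and therefore no findings, were at 0.87 ± 0.16, 1.23 ± 0.17 and 3.60 ± 0.63 (mean ± standard error, SE). Eif2s3y, a gene of the Y chromosome chosen for the same purpose, was at -0.33 ± 0.15 and did not pass the threshold (adjusted p = 0.126). In the comparison with testis given below, Gdf9 differed by 0.79 and Zp2 by 0.76, and neither passed (adjusted p = 0.265 and 0.0507 in limma). Eif2s3y differed there by -1.42 and passed (adjusted p = 0.00164), and Zp3 was not tested. If the sign were the other way, every direction below would turn. A value of 0 means a ratio equal to the median probe of the array, so "higher" and "lower" are relative to that median.

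Between 10912 and 13054 of the 16128 probes had a value on an array, and 12783 had one on at least 3 of the 5. Those with 1 gene symbol gave 6597 genes. Pairs of arrays correlated across probes at r between 0.537 and 0.806, and the 6 pairs of opposite channel order at r between 0.537 and 0.799. Replicate 2 had the smallest ratio in size for 45.2% of the 1583 called genes with 5 values, and replicate 4 the largest for 37.3%. These arrays also had the narrowest and the widest spread of all their probes, with median absolute deviations of 0.504 and 0.771. A term for channel order passed the threshold for 0 of 5998 genes in limma, with 374 at an unadjusted p under 0.05.

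In ovary 916 genes were higher and 994 lower than in the reference at an adjusted p under 0.05 (limma, Benjamini-Hochberg over all genes), which is 13.9% and 15.1% of the genes tested and 29.0% together. Without replicate 5, 511 were higher and 541 lower. The median of all genes was -0.02. Changes upward reached further than those downward: 54 genes were higher by more than 3 on the log2 scale and 5 lower by more than 3. At the level of probes, 3159 of 12783 passed (24.7%), 1591 higher and 1568 lower. The check of the labelled tissue used markers of its cell types. All 7 tested oocyte markers and all 4 tested theca and luteal markers were higher, as was Inha among 2 tested granulosa markers. Both tested endothelial markers were higher. Of 4 leukocyte markers 3 were higher and 1 lower, and of 4 markers of oviduct and surface epithelium 2 were higher and 2 lower. Markers of testis cells were split. Of the Sertoli markers Rhox5 and Dhh 1 was higher and 1 lower, and so it was for the male germ cell markers Tekt2 and Oaz3. The oocyte markers include Zp2, Zp3 and Gdf9, whose direction served to read the sign and so checks nothing here.

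**Figure D1:**
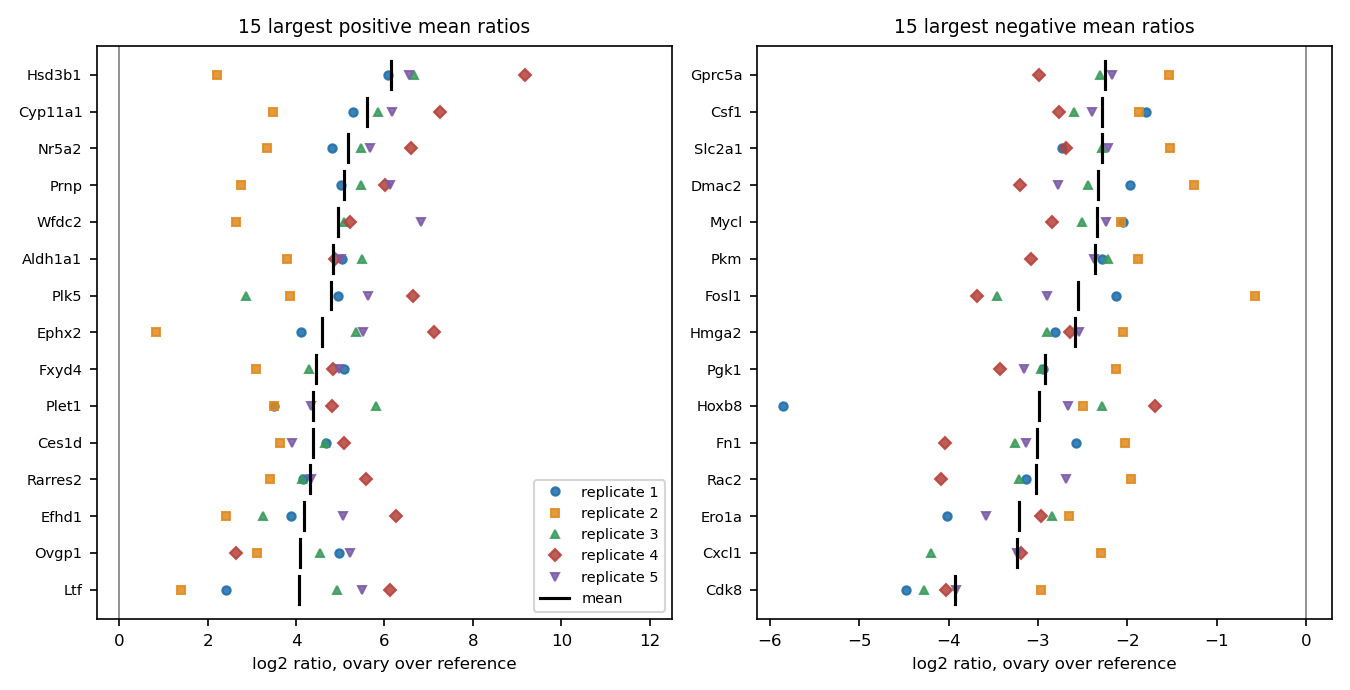
The horizontal axis is the log2 ratio of ovary over reference, each symbol is 1 array and the black bar is the mean over arrays with a value. The 15 genes with the largest positive means are on the left, from Ltf at 4.07 to Hsd3b1 at 6.14, and the 15 with the largest negative means on the right, from Gprc5a at -2.25 to Cdk8 at -3.93; every array with a value lies on the same side of 0 as the mean.

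Steroid synthesis led the genes that were higher in ovary. Hsd3b1, which converts pregnenolone to progesterone, was at 6.09, 2.22, 6.66, 9.18 and 6.56 on replicates 1 to 5. Replicate 2 was far below the others, and no array was near 0. Its mean was 6.14 ± 0.79 (70.7-fold, adjusted p = 0.0012 in limma). Cyp11a1, the side chain cleavage enzyme that makes pregnenolone from cholesterol, was at 5.29, 3.48, 5.86, 7.25 and 6.17, again lowest on replicate 2 and highest on replicate 4. Star carries cholesterol into the mitochondrion and was at 1.97, 1.66, 4.34, 5.33 and 5.51. Replicates 1 and 2 of Star lay well below the other arrays, and its mean was 3.76 ± 0.58 (13.6-fold).

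Among 12 tested genes of the steroid synthesis list 6 were higher and 2 lower, with a median of 0.98. Without replicate 3 or 5 there were 4 higher, and without replicate 1, 3 or 5 there was 1 lower. Cyb5a, the cytochrome b5 that supports the lyase step, was at 2.39 ± 0.27 and higher on all 5 arrays. Cyp17a1, the enzyme of the theca that makes androgens, was at -0.28, 0.89, 2.46, 2.15 and 2.10, with a mean of 1.46 ± 0.37. Its values without replicate 3, 4 or 5 were 1.22, 1.29 and 1.31, and none of these passed. Akr1cl, an aldo-keto reductase, was at 1.55 ± 0.44, with 1.32, 1.43 and 1.22 without replicate 3, 4 or 5, and these did not pass either. Tspo, a cholesterol-binding protein of the outer mitochondrial membrane, was lower at -1.51 ± 0.16 on all 4 arrays with a value. Stard5, a cytosolic relative of Star, was lower at -0.44 ± 0.12 but did not pass without replicate 1, 3 or 5 (-0.40, -0.39 and -0.46). Hsd17b10 at 0.49 ± 0.18, Cyb5b at 0.44 ± 0.15, Hsd17b4 at 0.14 ± 0.19 and Hsd17b12 at -0.21 ± 0.18 did not pass.

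Of 10 genes of cholesterol uptake and release 2 were higher and 2 lower, with a median of -0.04 (0.10 without replicate 2). In a list of this size these counts are near the shares of 13.9% and 15.1% over all genes. Scarb1, the receptor that takes up cholesterol from high density lipoprotein, was at 2.79, 2.54, 2.77 and 3.56 on the 4 arrays with a value, a mean of 2.91 ± 0.20 (7.54-fold). Apoa1, the main protein of that lipoprotein, was at 0.69 and 0.55 on replicates 1 and 2 and between 2.0 and 2.96 on the others. Cav1, a protein of membrane caveolae, was lower at -1.06 ± 0.14, and it was the only lower gene without replicate 1, 3, 4 or 5. Of 10 tested genes of cholesterol synthesis 5 were higher and 0 lower, with a median of 0.79. They included Scap, the escort of the sterol-sensing factors, at 0.85 ± 0.18, and squalene synthase Fdft1 at 0.83 ± 0.18, which without replicate 5 was 0.73 and did not pass. Idi1, an isomerase of the pathway, was at -0.29 on replicate 3 and between 0.81 and 1.65 on the others. Its mean of 0.89 ± 0.26 did not pass without replicate 1, 2, 4 or 5 (0.91, 0.88, 0.77 and 0.70). The count of higher genes in this list was 2 without replicate 5 and 3 without replicate 4. Hmgcs1, an early enzyme of the pathway, was at 0.90 ± 0.16 as the mean of a probe at 2.20 and a probe at -0.02, so its value depends on which probe is read.

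The transcription factors of gonadal somatic cells were led by Nr5a2, a nuclear receptor of granulosa and luteal cells that is needed for ovulation. It was at 4.81, 3.35, 5.46, 6.60 and 5.68, and its 3 probes ranged from 4.68 to 5.67. The mean of 5.18 ± 0.39 (36.2-fold) was the third largest of all genes under the rule for leading genes. Its relative Nr5a1, which drives steroid enzymes throughout the gonad and adrenal, was at 0.66, 0.36, 2.27, 1.38 and 1.74, lowest on replicates 1 and 2. Foxo1 of granulosa cells was at 2.53 ± 0.24 and Gata4 at 2.07 ± 0.26. Replicate 2 of Gata4 was at 0.79 and the other arrays between 2.17 and 2.62. In the list 7 of 15 genes were higher and 1 lower, with a median of 0.37 (0.57 without replicate 2). The lower gene was Klf4, an early growth-arrest factor of epithelia, at -1.34 ± 0.25.

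Among signals that pass between the cells of the follicle, members of the TGF-beta family went both ways. Inha, the inhibin subunit by which granulosa cells restrain pituitary FSH, was at 4.18, 2.56, 3.23, 4.57 and 4.09, with a mean of 3.73 ± 0.28 (13.2-fold). All 5 arrays were above 2. Tgfbr1, a type I receptor of the family, was at 1.71 ± 0.20 and the oocyte factor Bmp15 at 1.15 ± 0.20. The ligand Tgfb2 was lower at -1.14 ± 0.17 and Fstl1 at -1.03, and 6 of the 23 tested members were higher and 3 lower. The lower share of this family was near the 15.1% over all genes. Of the hedgehog, Wnt and Notch genes 5 of 13 were higher and 2 lower. Wnt4, which holds the gonad on the ovarian course, was at 2.02 ± 0.21. Ptch1, both receptor and target of hedgehog, was at 1.52 ± 0.21, the ligand Dhh at 1.04 ± 0.17, and Gli3, mainly a repressor of the pathway, was lower at -1.13 ± 0.18. Without replicate 1, 4 or 5 only 1 gene of this list was lower.

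Of 18 genes of other growth factors 7 were higher and 3 lower, with a median of 0.00 (0.22 without replicate 4). The lower share was near the 15.1% over all genes. Gas6, the ligand of the TAM receptors, was at 3.64, 2.31, 3.35, 2.68 and 2.88, with a mean of 2.97 ± 0.20. Its receptor Axl had values on replicates 3, 4 and 5 only, between -1.01 and -0.56, and was lower at -0.74. Midkine (Mdk) was at 2.68 ± 0.20, Igfbp3 at 2.37 ± 0.21 and Igf1, which sensitises granulosa cells to FSH, at 2.01 ± 0.14, each on all 5 arrays. The receptor Fgfr1 was lower at -1.06 ± 0.21, and Igf2, a growth factor of fetal tissue, was at -0.79 and did not pass (named after its value was seen). Of 15 receptors and relays of hormones 3 were higher and 4 lower, and 1 was higher without replicate 5. Esr1, the estrogen receptor of theca and stroma, was at 0.13, 0.54, 1.73, 2.31 and 1.78. Replicates 1 and 2 lay apart again, the mean was 1.30 ± 0.31, and without replicate 5 it was 1.18 and did not pass.

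Of the 48 genes of the oocyte list 36 were named on the array, 34 were tested, 25 were higher and 0 lower, and the median was 1.24. The list holds the anchors Gdf9, Zp2 and Zp3, which were used to read the sign. Without replicate 5 there were 18 higher and 1 lower, and 1 was also lower without replicate 1 or 2. The largest mean was that of Fbxw24, one of a cluster of oocyte F-box genes, at 4.97, 1.81, 3.61, 4.27 and 4.35 (mean 3.80 ± 0.39). The linker histone of oocytes, H1f8, varied less between arrays, at 3.76, 2.52, 3.45, 3.38 and 3.21 (mean 3.26 ± 0.18, 9.61-fold). Nlrp14, a maternal factor of the NLRP family, was at 1.21 and 1.17 on replicates 1 and 2 and at 5.07, 3.30 and 4.96 on the others.

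The following members were named after their values were seen. Mos, the kinase that holds the mature egg in metaphase, was at 2.30, 2.70, 1.81, 3.06 and 2.14, and replicate 2 was among its higher arrays. Nlrp5 at 2.50 ± 0.31, Ooep at 2.92 ± 0.45 and Padi6 at 1.24 ± 0.19 are parts of the subcortical complex that the egg passes to the embryo. Tle6, another part of that complex, was at -0.26 and did not pass. Zar1, which protects maternal messages, was at 2.07 ± 0.33. Bcl2l10, a survival factor of the BCL2 family that oocytes hold in abundance, was at 2.90 ± 0.45, and Uchl1, a ubiquitin hydrolase of oocytes and neurons, at 3.13 ± 0.28.

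Members that did not pass included several that act early in the germ line or in the primordial follicle, likewise named after their values were seen. Nobox was at 0.19, Sohlh1 at -0.04, Dazl at 0.03, Gtsf1 at 0.54 (adjusted p = 0.0501) and Elavl2 at -0.50. Gtsf1 passed without replicate 1 or 2 (0.63 and 0.64), and Elavl2 passed as lower without replicate 1, 2 or 5 (-0.78, -1.01 and -0.86). Elavl2 had a probe at -0.88 and a probe at 0.14, so its value depends on which probe is read. Ddx4, a helicase of germ cells, was called at 0.47 ± 0.14 but not without replicate 1, 3, 4 or 5 (0.50, 0.42, 0.40 and 0.49). Dppa3, also a maternal factor, was at 0.13. In bulk tissue, fewer cells of a type and less RNA per cell cannot be told apart, so these values do not count oocytes.

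**Figure D2:**
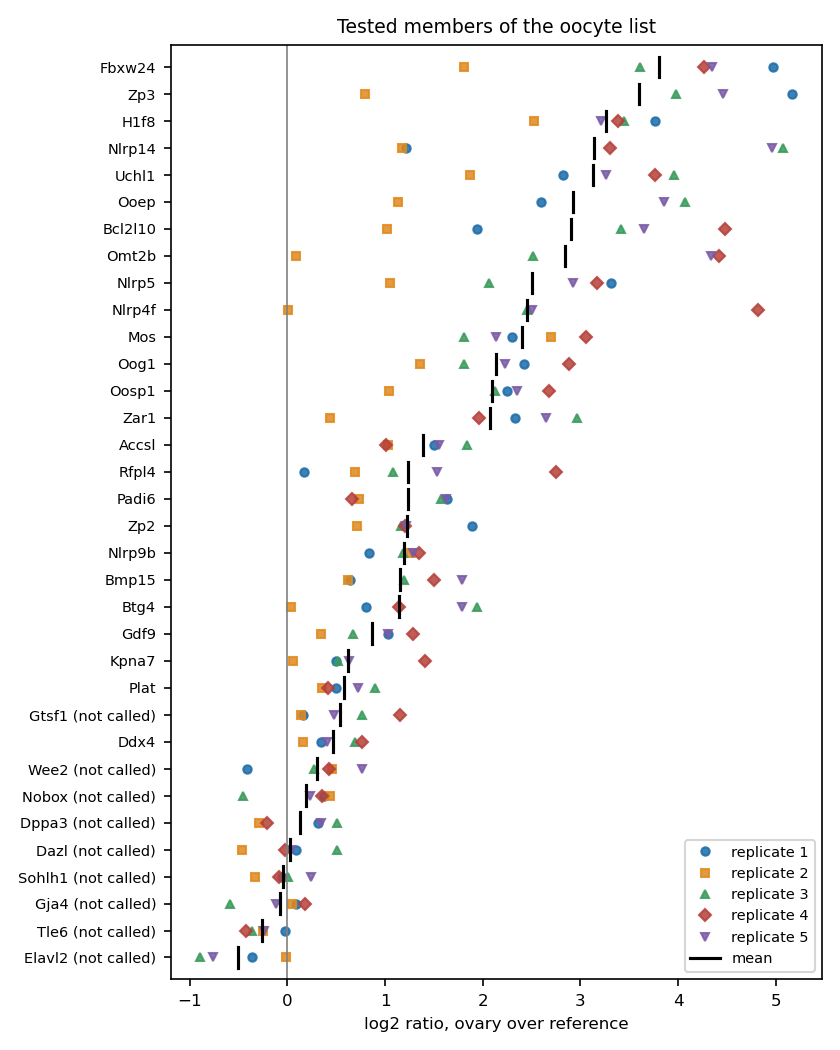
The horizontal axis is the log2 ratio of ovary over reference for the 34 tested oocyte genes, with 1 symbol per array and the mean as a black bar. The 25 called members stretch from Ddx4 at 0.47 to Fbxw24 at 3.80, and replicate 2 is the lowest array of many of them.

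The luteal list had 6 of 11 genes higher and 2 lower, with a median of 0.66, and shares Star, Cyp11a1 and Scarb1 with the lists above. The median was 1.92, 1.89 and 1.67 without replicate 2, 4 or 5, when 10 of the genes were tested. The secreted peroxidase Gpx3 was at 3.36, 3.40, 4.23, 3.0 and 3.13, with a mean of 3.42 ± 0.19 and little difference between arrays. Pcsk5, a proprotein convertase, was at 3.53 ± 0.44. The metallothioneins Mt1 and Mt2 were lower, at -0.82 and -1.03, and 1 of the list was lower without replicate 2, 4 or 5. Among ovulation and remodelling genes 2 of 15 were higher and 2 lower, near the shares over all genes, and 1 was higher without replicate 5. Rgs2, a brake on G protein signals, was at 2.15 ± 0.16 over 3 probes that ranged from 0.27 to 3.28. The protease Adamts1, which opens the cumulus matrix, was lower at -1.05 ± 0.20, and the inhibitor Timp2 at -1.19 ± 0.17.

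All 7 tested vessel genes passed, 5 higher and 2 lower, with a median of 1.17. Cdh5, the cadherin of endothelial junctions, was at 2.16, 2.74, 4.33, 6.88 and 3.84, with a mean of 3.99 ± 0.58 (15.9-fold). Emcn was at 2.38 ± 0.42, Mcam at 1.60 ± 0.16 and Pecam1 at 1.17 ± 0.18. The lower genes were Cav1 and Cd34, a marker of vessels and of blood precursors, at -0.40 ± 0.13. Cd34 did not pass when any single replicate was left out, at values from -0.44 to -0.34.

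Leukocyte and complement genes went both ways, with 5 of 12 higher, 4 lower and a median of -0.40, and 2 lower without replicate 3, 4 or 5. Serping1, the C1 inhibitor, had values on 3 arrays only, at 3.95, 5.05 and 4.44. The class II gene H2-Eb1 was at 2.60 ± 0.34, C1qb at 1.73 ± 0.27 and the lysozyme Lyz2 of macrophages at 1.37 ± 0.28. Lcp1, the plastin of blood cells, was at -1.39 ± 0.12 and B2m at -1.20 ± 0.17, both lower on all 5 arrays. C1qa, named after its value was seen, was higher at 0.73 ± 0.14 while its partner C1qc was lower at -0.54 ± 0.17. C1qc did not pass without replicate 2, 3, 4 or 5, at -0.45, -0.58, -0.43 and -0.60.

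Genes of the ovarian surface and of the oviduct were among the largest ratios: 9 of 17 were higher and 3 lower, with a median of 0.89. Wfdc2, a protease inhibitor secreted by the lining of the reproductive tract, was at 2.65, 5.09, 5.21 and 6.83 on replicates 2 to 5. Ovgp1, the glycoprotein that the oviduct secretes onto the egg, was at 4.97, 3.11, 4.55, 2.64 and 5.23, with a mean of 4.10 ± 0.38 (17.2-fold). Aldh1a1, a retinaldehyde dehydrogenase also found in other ovarian cells, was at 4.84 ± 0.23 and Cdh1, the epithelial cadherin, at 1.90 ± 0.17. Of the keratins of simple epithelia, Krt18 was lower at -1.21 ± 0.14 and Krt8 at -1.10 ± 0.15, while Krt19 was higher at 0.89 ± 0.17. The median of the list was 0.11 and 0.25 on replicates 1 and 2 and 1.10, 0.83 and 1.35 on replicates 3, 4 and 5. The part of oviduct tissue in the results was not tested.

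Of the other tissues that a dissected ovary could carry, fat had 0 of 2 tested genes called and red cells 0 of 5 in limma. Without replicate 4, 1 red cell gene was lower. Hbb-b1, a globin, was not called, at 2.65 on replicate 2 and between -0.46 and 0.32 on the other arrays. None of Adipoq, Fabp4 and Cfd, which define fat, was named on the array. The 6 tested genes of late male germ cells, which an ovary should lack, were 4 higher and 2 lower, and 1 was lower without replicate 3 or 5. Cox6b2 was at 1.95 ± 0.28, Rsph1, a gene of motile cilia as well as flagella, at 1.47 ± 0.27 and Oaz3 at -0.68 ± 0.14. Tekt2 was at 0.50 ± 0.14 and did not pass without replicate 3, 4 or 5 (0.49, 0.48 and 0.41). In the comparison with testis given below, 5 of these 6 genes were lower in ovary. Oaz3 was higher, by 1.52 (adjusted p = 0.0338 in limma). The median of the list was 0.79 in ovary and 5.3 in testis. The part of these tissues in the results was not tested.

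Further genes among the 15 largest ratios have no list above. Prnp, the prion protein, was at 5.02, 2.76, 5.46, 6.02 and 6.12, with a mean of 5.08 ± 0.44 (33.7-fold). Plk5, a polo-like kinase outside the cell cycle, was at 4.79 ± 0.47. Lactoferrin (Ltf), an iron-binding protein of secretions that estrogen induces in the uterus, was at 2.41 and 1.40 on replicates 1 and 2 and at 4.93, 6.13 and 5.49 on the others. Its 3 probes ranged from 3.89 to 4.23, so the split lay between arrays and not between probes. Rarres2, the adipokine chemerin, was at 4.32 ± 0.27, Fxyd4, a modulator of the sodium pump, at 4.46 ± 0.28, Plet1 at 4.39 ± 0.32 and Efhd1, a calcium-binding protein of mitochondria, at 4.18 ± 0.48.

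Replicates 1 and 2, whose array numbers in the titles follow each other, both had small ratios for a number of genes. Among the 1583 called genes with 5 values, both had a smaller ratio in size than each of replicates 3, 4 and 5 for 389 genes (24.6%), and a larger one for 42 (2.65%). Replicate 2 had the smallest ratio for 45.2% of these genes and replicate 1 for 21.2%. This pair also had the lowest correlation of all pairs (r = 0.537). The share that order alone would give was not computed, so 24.6% does not show that the 2 arrays belong together. The means of Star, Hsd3b1, Ephx2 and Ltf, named here for this gap, were 1.81, 4.15, 2.48 and 1.90 over those 2 arrays. Over replicates 3, 4 and 5 they were 5.06, 7.47, 5.99 and 5.52. Each of these means was above 0 on both sets of arrays. For Star and Ltf, replicates 1 and 2 lay nearer to each other than to the rest. For Hsd3b1 and Ephx2, replicate 1 lay nearer to replicates 3, 4 and 5 than to replicate 2. The means of these genes over replicates 1 and 2 hide that difference. Whether these arrays differ in the ovaries or in the hybridisation was not tested.

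Enzymes that remove oxidants and foreign compounds had 16 of 39 genes higher and 8 lower, with a median of 0.36. Ces1d, a carboxylesterase, was at 4.68, 3.64, 4.66, 5.08 and 3.91, with a mean of 4.39 ± 0.22 (21-fold). Ephx2, the soluble epoxide hydrolase, was at 4.12, 0.83, 5.35, 7.11 and 5.52, a wide spread with all arrays above 0. Gstp1, a glutathione transferase abundant in many cell lines, was lower at -1.43 ± 0.15 and thioredoxin (Txn1) at -1.27 ± 0.16.

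Genes of the extracellular matrix went both ways. Of 24 matrix proteins 8 were higher and 5 lower, with a median of 0.12 (between 0.04 and 0.20 with 1 replicate left out), and without replicate 3, 4 or 5 there were 5, 5 and 4 higher. Without replicate 3 or 4 there were 3 lower. Mgp, an inhibitor of calcification, was at 3.30 ± 0.22, Mfap4 at 2.38 ± 0.34 and Lama1, a laminin of basement membranes, at 2.16 ± 0.25. Fibronectin (Fn1), which cultured fibroblasts secrete in quantity, was at -2.57, -2.03, -3.26, -4.04 and -3.13, with a mean of -3.01 ± 0.26 (8.03-fold lower). Of 21 collagens and collagen enzymes 3 were higher and 8 lower, with a median of -0.26. Col1a1 was at -1.59 ± 0.22, Col1a2 at -1.09 and the prolyl hydroxylase P4ha2 at -2.06 ± 0.38. Col4a1, a chain of basement membranes, was at 0.77 ± 0.14. Without replicate 3 or 5 only 1 collagen gene was higher.

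Contractile genes were 3 higher and 4 lower of 14, and 2 lower without replicate 2, 3 or 5. Mylk, the kinase of smooth muscle myosin, was at 2.67, 1.92, 2.82, 2.35 and 2.68, and calponin (Cnn1) at 2.48 ± 0.23. The integrin Itga1 was at -1.50 ± 0.14. The cytoskeleton list of actins, tubulins and their partners had 17 of 38 genes lower, 2 higher and 19 not called, with a median of -0.32, and 1 higher without replicate 1, 4 or 5. Lgals1 was at -2.14 ± 0.14, S100a6 at -1.81 ± 0.15, Anxa1 at -1.62 ± 0.19 and nonmuscle myosin Myh9 at -1.36 ± 0.20.

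**Figure D3:**
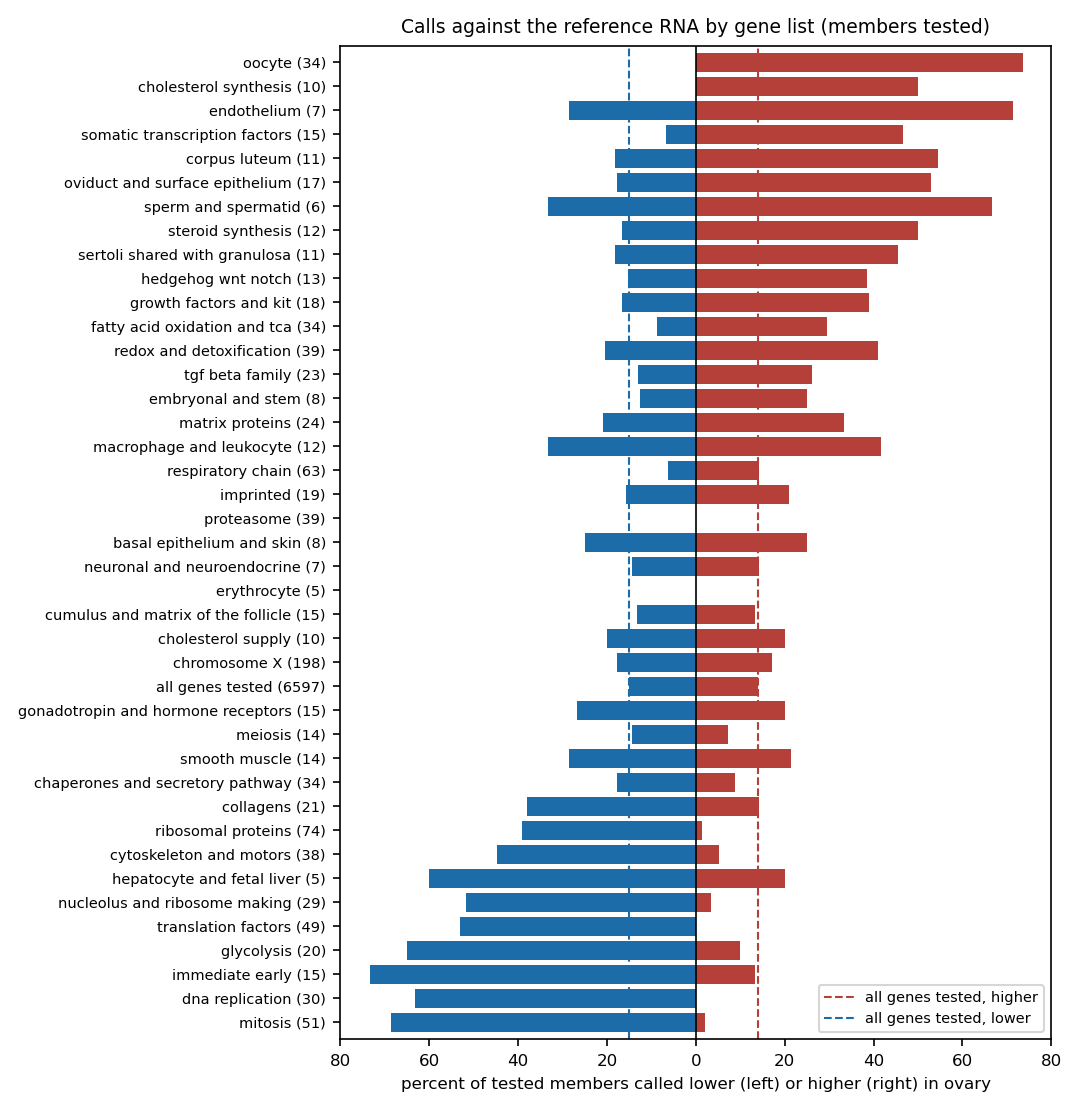
Bars give the percent of tested members of each gene list that were called higher (right) or lower (left) in ovary, with the number tested in brackets, and the dashed lines mark 13.9% and 15.1%, the shares over all 6597 genes. The oocyte list reaches furthest to the right, with 25 of 34 members, and the mitosis, replication, immediate early and glycolysis lists reach far to the left.

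Genes of cell division were mostly lower in ovary than in the reference, and few were higher. Of 30 tested genes of DNA replication 19 were lower and 0 higher, with a median of -0.77, and of 51 genes of mitosis and the cell cycle 35 were lower and 1 higher, with a median of -0.80. The higher gene was Cdkn1b, the inhibitor p27 that keeps cells out of the cycle, at 1.0, 1.42 and 0.94 on the 3 arrays with a value, and without replicate 4 or 5 there were 0 higher. The sequences before the start of 5 lower genes, chosen after their values were seen, are shown because these members were lower together. Each printed gene also had to hold a marked motif, so the 5 do not show how common the motifs are among lower genes. The sequences come from the RefSeq promoter table of GRCm38.p6. Each spans 300 bases that lie mostly before the start, on the strand of the gene. Capitals mark CCAAT, the site of the factor NF-Y, and TTTGGCGC, a site of the E2F factors, read on either strand.

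The first is Ccnb2 (chr9:70421505-70421804, minus strand), a cyclin of mitosis, with 3 copies of CCAAT:

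Ccnb2: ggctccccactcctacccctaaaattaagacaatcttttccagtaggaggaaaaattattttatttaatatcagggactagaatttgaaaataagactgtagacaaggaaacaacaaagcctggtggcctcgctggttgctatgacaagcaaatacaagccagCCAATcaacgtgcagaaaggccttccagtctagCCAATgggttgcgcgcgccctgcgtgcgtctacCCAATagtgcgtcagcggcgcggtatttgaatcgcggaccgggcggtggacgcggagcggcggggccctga

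Cdk1 (chr10:69352863-69353162, minus strand), the kinase that drives mitosis, holds 3 copies, and Cdc20 (chr4:118437294-118437593, minus strand), which starts the destruction of cyclins, holds 2:

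Cdk1: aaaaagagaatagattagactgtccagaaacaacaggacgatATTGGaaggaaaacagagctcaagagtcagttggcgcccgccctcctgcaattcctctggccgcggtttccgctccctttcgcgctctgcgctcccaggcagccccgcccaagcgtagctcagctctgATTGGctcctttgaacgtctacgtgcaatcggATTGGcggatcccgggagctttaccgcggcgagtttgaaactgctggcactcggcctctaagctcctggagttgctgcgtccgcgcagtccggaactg

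Cdc20: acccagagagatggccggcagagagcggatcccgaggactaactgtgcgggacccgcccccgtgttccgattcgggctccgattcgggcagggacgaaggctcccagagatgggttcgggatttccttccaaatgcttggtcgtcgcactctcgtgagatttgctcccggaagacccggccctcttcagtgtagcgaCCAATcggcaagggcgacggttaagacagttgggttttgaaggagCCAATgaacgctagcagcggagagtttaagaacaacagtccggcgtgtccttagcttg

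Mcm5 (chr8:75109259-75109558, plus strand), a subunit of the replicative helicase, holds 3 copies of CCAAT and 1 of TTTGGCGC, and Cdt1 (chr8:122567765-122568064, plus strand), which loads that helicase, holds 1 of TTTGGCGC:

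Mcm5: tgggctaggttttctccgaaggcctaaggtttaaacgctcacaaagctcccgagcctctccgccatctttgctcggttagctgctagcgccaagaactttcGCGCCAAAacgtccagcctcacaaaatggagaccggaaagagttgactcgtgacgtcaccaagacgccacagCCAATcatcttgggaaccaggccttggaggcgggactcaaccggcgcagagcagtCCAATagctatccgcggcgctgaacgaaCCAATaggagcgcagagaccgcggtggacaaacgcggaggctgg

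Cdt1: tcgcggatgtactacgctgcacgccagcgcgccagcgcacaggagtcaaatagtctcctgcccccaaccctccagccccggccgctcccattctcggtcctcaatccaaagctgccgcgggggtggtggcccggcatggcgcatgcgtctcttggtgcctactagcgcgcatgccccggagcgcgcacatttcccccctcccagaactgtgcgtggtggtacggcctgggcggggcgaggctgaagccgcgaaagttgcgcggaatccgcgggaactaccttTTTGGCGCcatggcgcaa

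CCAAT was found in 21 of the 30 lower genes of the mitosis list that have a promoter in the table (70.0%), and in 7 of 10 that were not called. In DNA replication it was in 12 of 17 lower genes (70.6%) and in 7 of 9 not called (77.8%). Of all tested genes with a promoter, 43.5% held it, and of all genes with a listed promoter 41.1%, so the shares of called and of uncalled members both lay above that of all genes. TTTCCCGC, another E2F site, was in 5 of the 17 lower replication genes (29.4%) and TTTGGCGC in 3 (17.6%), against 2.77% and 1.22% of all tested genes with a promoter. Of the 9 replication genes not called, 0 held TTTCCCGC and 1 held TTTGGCGC (11.1%). Of the 30 lower mitosis genes 1 held each of them (3.33%). The motifs were searched on both strands and can share letters only at their ends, and a gene counts once if any of its listed promoters holds the motif. AAGGTCA, a site of the NR5A receptors, was in 0 of the 3 higher steroid genes with a promoter in the table and in 3.53% of all tested genes with one. A match is a description of letters and not of binding.

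For the genes printed, Ccnb2 was at -1.28, -0.40, -1.14 and -0.78 on replicates 2 to 5. Cdk1 was at -1.32, -0.02, -0.89, -1.13 and -1.22, so replicate 2 was at the level of the median probe. Cdc20 was at -1.67, -1.04, -0.88, -0.87 and -0.69, lower throughout. Cdt1 had the largest ratio of the replication list, at -2.09, -1.04, -1.66, -1.90 and -2.14 (mean -1.77 ± 0.18, 3.40-fold lower), and Mcm5 was at -1.02 ± 0.18. Thymidine kinase (Tk1) was at -1.66 ± 0.14, the polymerase Pole at -1.51 ± 0.20 and the helicase subunit Mcm2 at -1.30 ± 0.23. In mitosis Racgap1, which acts in cytokinesis, was at -1.49 ± 0.19, cyclin E1 (Ccne1) at -1.44 ± 0.23 and Incenp of the chromosomal passenger complex at -1.41 ± 0.17. Leaving out a replicate gave between 16 and 19 lower genes in the replication list and between 26 and 31 in the mitosis list.

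Ribosome production and translation had many lower genes and few higher ones, beside many that were not called. Of 29 nucleolar genes 15 were lower and 1 higher, with a median of -0.49. Mybbp1a was at -1.21 ± 0.15 and Nop2, which methylates ribosomal RNA, at -0.96 ± 0.21. The higher gene, Rrs1, was at 1.57, 1.24, 1.71, 2.12 and 2.40 from a single probe. Of 49 translation factors and transfer RNA ligases 26 were lower, 0 higher and 23 not called, with a median of -0.50, led by Tars at -1.48 ± 0.17 and the initiation factors Eif3e at -1.04 ± 0.18 and Eif3d at -1.02 ± 0.15. Of 74 ribosomal protein genes 29 were lower, 1 higher and 44 not called, with a median of -0.41, and 17 were lower with 1 probe per gene and 15 on replicates 4 and 5 alone. Rplp0 was at -0.94 ± 0.20 over 3 probes and Rpsa at -0.94 ± 0.17 over 6. The higher gene, Rps6, was at 0.89 ± 0.18, but 3 of its 4 probes were below 0 and the other was at 4.58. Without replicate 5 the lower genes of these lists were 7, 13 and 9. Nucleolar genes had 9 lower without replicate 3, and ribosomal proteins between 14 and 16 without replicate 2, 3 or 4.

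Proteasome subunits gave 0 calls among 39 genes in limma, with a median of -0.17, and 1 lower gene without replicate 2 or 3. Chaperones gave 3 higher and 6 lower of 34, and without replicate 1, 2 or 5 there were 3, 3 and 2 lower. Fkbp5, a partner of the glucocorticoid and progesterone receptors, was at 2.39, 0.24, 2.50, 2.03 and 2.60, with a mean of 1.95 ± 0.32. The mitochondrial chaperone Hspa9 was lower at -1.08 ± 0.16.

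Most tested genes of glycolysis were lower in ovary, with 13 of 20 genes lower, 2 higher and a median of -1.09. Pgk1, which yields the first ATP of the pathway, was at -2.94, -2.12, -2.97, -3.42 and -3.15 (mean -2.92 ± 0.19, 7.57-fold lower). The pyruvate kinase Pkm was at -2.36 ± 0.18 over 2 probes, and Slc2a1, the glucose transporter of most cultured cells, at -2.28 ± 0.19. Tpi1 had values on 3 arrays, at -2.44, -2.07 and -2.26. The higher genes were Pfkfb3, which makes an activator of the pathway, at 1.16 ± 0.27 and the lactate dehydrogenase Ldhb at 2.44, -0.61, 3.0, 1.69 and 2.72. Replicate 2 of Ldhb lay below 0, and its mean of 1.85 ± 0.47 also passed without replicate 2 (2.46). It did not pass without replicate 1, 3, 4 or 5 (1.70, 1.56, 1.89 and 1.63).

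Genes of mitochondrial oxidation were called lower less often than the 15.1% over all genes. Of 34 genes of fatty acid oxidation and the citrate cycle 10 were higher and 3 lower, with a median of 0.19 (0.09 without replicate 3), and 5 were higher without replicate 5. The thiolase Acaa2 was at 1.67 ± 0.21, Etfdh, which passes electrons to the respiratory chain, at 1.44 ± 0.15 and the hydratase Echs1 at 1.26 ± 0.14. Got1 at -0.89 ± 0.17 and Mdh2 at -0.72 ± 0.16, enzymes of the shuttle that moves reducing equivalents across the mitochondrial membrane, were lower. Of 63 genes of the respiratory chain 9 were higher and 4 lower, with a median of 0.02 and a higher share near the 13.9% over all genes, and leaving out 1 replicate gave between 3 and 12 higher and between 1 and 3 lower. The difference between the lists themselves was not tested.

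**Figure D4:**
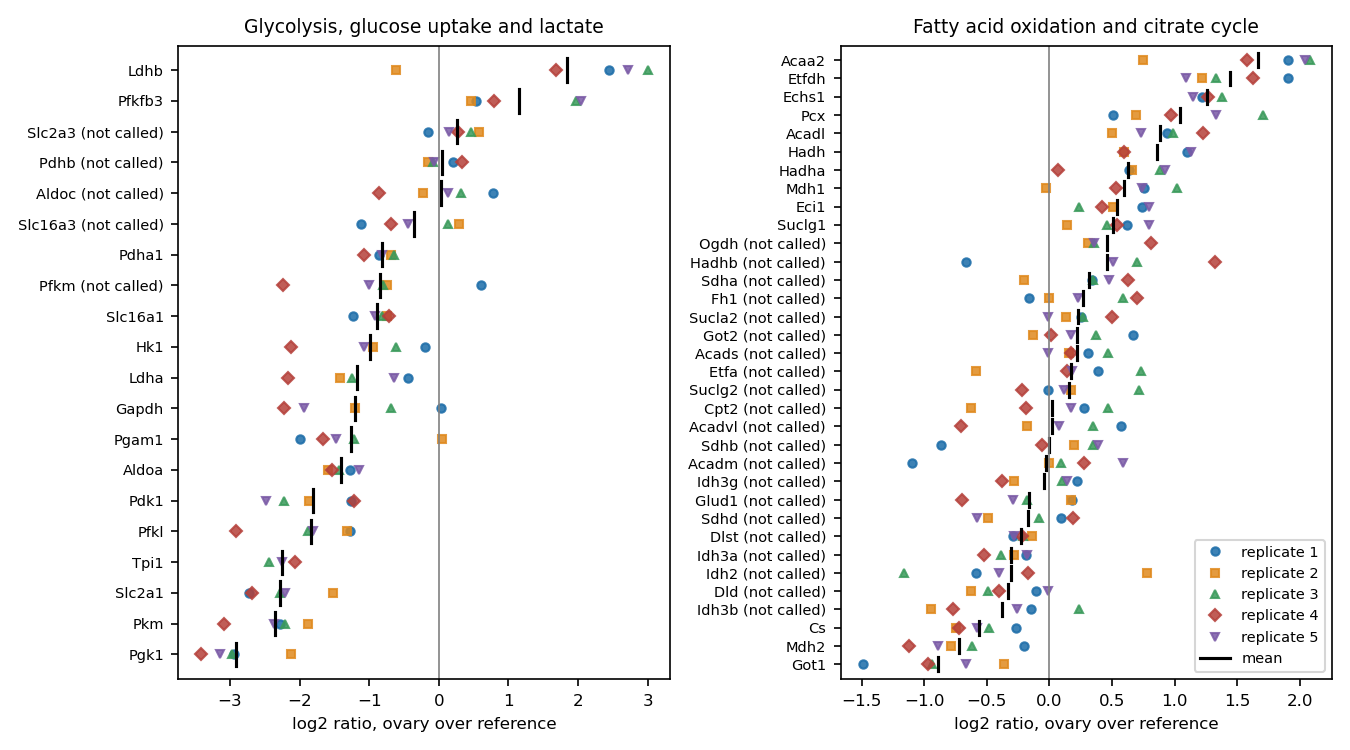
The horizontal axes are the log2 ratio of ovary over reference, 1 symbol per array with the mean as a black bar, for 20 genes of glycolysis (left) and 34 of fatty acid oxidation and the citrate cycle (right). Most glycolysis genes lie below 0, down to Pgk1 at -2.92, while the other list runs from Got1 at -0.89 to Acaa2 at 1.67.

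Immediate early genes, which handling of tissue can switch on, were lower in 11 of 15 and higher in 2, with a median of -0.94. Fosl1 was at -2.13, -0.57, -3.46, -3.68 and -2.90, Fos at -2.12 ± 0.38, Ier3 at -2.08 ± 0.23 and Klf4 at -1.34 ± 0.25. The higher genes were Tsc22d1, at 2.38 ± 0.16 over 5 probes that ranged from 2.06 to 2.53, and the kinase Sgk1, which FSH induces in granulosa cells, at 1.16 ± 0.17.

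The largest negative ratio was that of Cdk8, a kinase of the Mediator complex, at -4.48, -2.96, -4.28, -4.03 and -3.92, with a mean of -3.93 ± 0.21 (15.3-fold lower) from a single probe. The chemokine Cxcl1 followed at -3.23 ± 0.28 and Ero1a, an oxidase of the endoplasmic reticulum, at -3.21 ± 0.21. Rac2, a GTPase of blood cells, was at -3.02 ± 0.27, Hmga2, a chromatin protein of embryonic and transformed cells, at -2.59 ± 0.15 and Mycl at -2.34 ± 0.15. Hoxb8 was at -5.85 on replicate 1 and between -2.66 and -1.69 on the others. The growth factor of macrophages, Csf1, was at -2.28 ± 0.18, Dmac2 at -2.33 ± 0.26 and Gprc5a at -2.25 ± 0.24. Apart from Gprc5a, which was not tested there, none of these genes passed in the comparison with testis given below. Their differences ran from -0.44 for Cdk8 to 0.81 for Mycl, with 0.05 for Cxcl1 and -0.06 for Ero1a. Mycl alone passed there with the run of array numbers as a block (0.91). These low ratios are therefore not shown to be particular to ovary.

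Marker lists of the cell types that a pooled reference may hold were small here. Liver and fetal liver genes were 3 lower and 1 higher of 5, and 1 lower without replicate 5, with Dlk1 at -2.0 ± 0.37 and H19 at -1.15 ± 0.16 over 7 probes, all below 0. Embryonal genes were 2 higher and 1 lower of 8, 1 higher without replicate 3, 4 or 5 and 2 lower without replicate 3. Pou5f1, the octamer factor that oocytes also hold, was at 0.74, 1.61 and 0.91 on 3 arrays and Dppa5a at 1.80 ± 0.26, while Trap1a, a tumour rejection antigen, was lower at -0.74 ± 0.16. Keratinising epithelium was 2 higher and 2 lower of 8 (1 lower without replicate 1, 3, 4 or 5), lymphoid cells 1 and 1 of 3, and neurons 1 and 1 of 7 (0 lower without replicate 3). Of 19 imprinted genes 4 were higher and 3 lower (1 without replicate 5), and Ndn at 1.64 ± 0.15 and Sgce at 1.40 ± 0.20 led the higher ones. Genes of the X chromosome were 34 higher and 35 lower of 198, close to the shares of 13.9% and 15.1% over all genes.

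Testis against the same reference RNA showed which of these ratios differ between the gonads. A gene entered with values on at least 3 arrays of each group, which 6203 did, and a difference of the ratios was tested in limma. Between ovary and testis 2388 genes differed (38.5%), 1033 higher (16.7%) and 1355 lower (21.8%) in ovary. Both groups share the reference, so their ratios to it are not independent. A gene mean can differ from that above where fewer probes qualified.

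Nr5a2 differed most upward: its testis ratios lay between -0.59 and -0.09, its ovary ratios from the qualifying probe between 3.82 and 5.06, and the difference was 5.03 ± 0.28 (32.8-fold, adjusted p = 1.32e-06). The groups did not overlap. Krt19, a keratin of lining epithelia, was at 0.89 in ovary and -3.92 in testis, a difference of 4.80 ± 0.28. Plet1 differed by 3.94 ± 0.49, Oas1d, an oocyte member of the oligoadenylate synthetase family, by 3.80 ± 1.12 (adjusted p = 0.0236), Sgk1 by 3.78 ± 0.49 and Uba3, which activates NEDD8, by 3.69 ± 0.33. Oas1d was at -0.78 on replicate 2 and between 2.52 and 3.45 on the other ovary arrays with a value.

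The largest differences downward were of genes near or below 0 in ovary and far above it in testis. Rimbp3, of the manchette that shapes the sperm head, was at -0.42 in ovary and 4.99 in testis, a difference of -5.41 ± 0.31 (42.4-fold). Ccdc136, of the acrosome, differed by -5.40 ± 0.25, Tekt2, of the flagellum, by -5.23 ± 0.40 and Phf7, a histone reader of male germ cells, by -5.23 ± 0.36. Wdr62, of the spindle pole, differed by -4.97 ± 0.27 and Spata24 by -4.96 ± 0.45. The 4 arrays of ovary against testis gave these 6 genes means between -5.07 and -4.28.

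The oocyte list had 14 of 29 genes higher in ovary than in testis and 4 lower, with a median difference of 0.79. The 4 lower genes, Gtsf1, Dazl, Ddx4 and Sohlh1, all act in male germ cells too, and differed by -4.38 ± 0.40, -2.02 ± 0.27, -1.57 ± 0.46 and -1.66 ± 0.47. Nlrp14 was at 3.18 in ovary and at 3.32 in testis, where the arrays ranged from -1.51 to 6.69, and did not pass. Meiotic prophase genes were 8 lower and 0 higher of 12. Their median was -0.08 in ovary and 2.47 in testis, so the ovary was close to the median probe.

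Steroid synthesis was compared between the gonads next. Of 11 genes 3 were higher in ovary and 0 lower, with a median difference of 0.71. Cyp11a1 was at 5.61 in ovary and 5.05 in testis, a difference of 0.56 ± 0.67 that did not pass (adjusted p = 0.541). With the run of array numbers, which both groups share, as a block it was -0.17 ± 0.58, and it did not pass either. Within the first and second runs it was -0.88 and 1.23, of opposite sign, and the third gave no value. For Hsd3b1 the difference was 2.93 ± 1.13 (adjusted p = 0.061). With that block it was 2.49 ± 0.77 and passed (adjusted p = 0.0261), with 1.81, 3.94 and 2.41 within the 3 runs. For Cyp17a1 the difference was -1.0 ± 0.52 (adjusted p = 0.149), and with the block -1.12 ± 0.41 (adjusted p = 0.0528 in limma), which did not pass either. Inha was at 3.73 and 0.91, a difference of 2.82 ± 0.38. Smooth muscle genes, 3 higher and 4 lower against the reference, were 11 higher and 0 lower of 14 against testis, with a median difference of 1.34. Vessel genes were 5 higher and 1 lower of 7.

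Genes of mitosis were lower than in testis in 23 of 50 and higher in 5, with a median difference of -0.68. Genes of DNA replication were lower in 7 of 29 and higher in 2, with a median difference of -0.22. The lower share of the replication list was near the 21.8% over all genes. Genes of glycolysis had low ratios to the reference in both gonads, with medians of -1.18 in ovary and -1.35 in testis. Pgk1 was at -2.92 and -3.66, a difference of 0.74 ± 0.34 that did not pass. Ribosomal protein genes were 32 higher and 1 lower of 74 against testis, with medians of -0.41 and -1.09 against the reference.

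**Figure D5:**
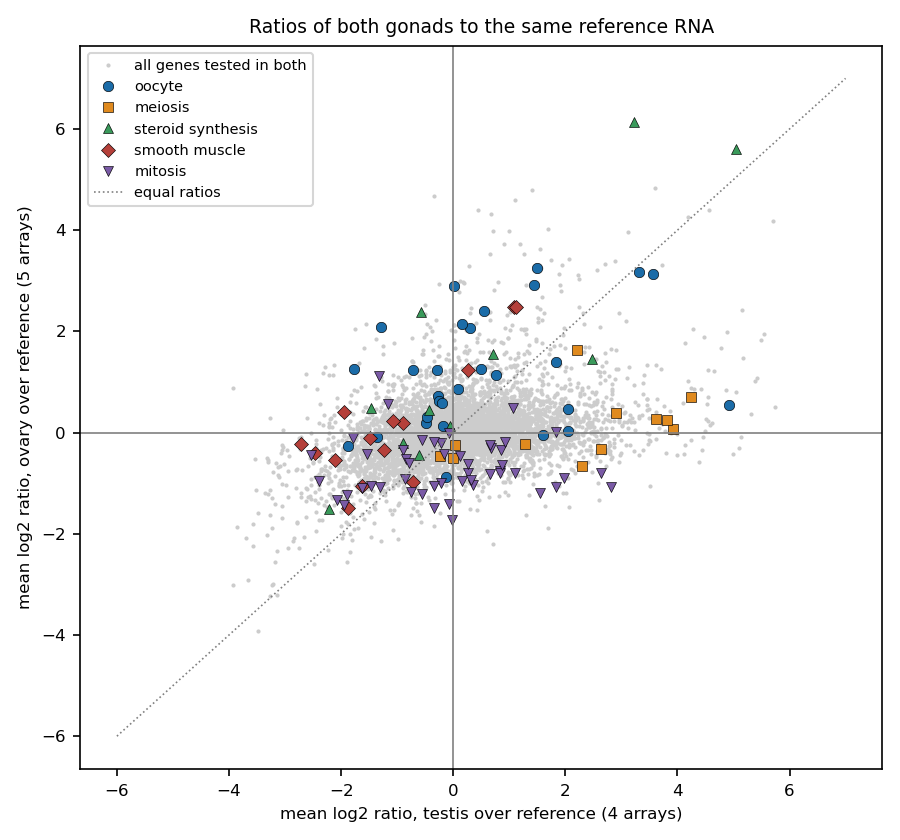
Each grey point is 1 of 6203 genes, with its mean log2 ratio of testis over reference (4 arrays) on the horizontal axis and of ovary over reference (5 arrays) on the vertical axis; coloured symbols mark 5 gene lists and the dotted line equal ratios. Meiosis genes lie far to the right near 0 on the vertical axis (medians of 2.47 and -0.08), and Hsd3b1 and Cyp11a1 are at the top.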

How the data were processed

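The deposited table holds log ratios of 21 2-colour arrays, which the authors centred and which are read here as log2 from their range, since the labels state no base. Background correction, normalization, dyes, scanner and annotation build are not given in the sources used here. Each of the 5 ovary arrays was centred on its median, no sign was turned, since arrays of both channel orders correlated positively as deposited, and the mean over probes with 1 gene symbol and values on at least 3 arrays gave a gene's value. The symbols came from the platform's annotation, in which 9604 of 16128 probes had 1 symbol, 213 several and 6311 none. Symbols of 9496 probes were matched to RefSeq and the others kept.

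Means were tested against 0 with lmFit and eBayes of limma 3.58.1 in R 4.3.3, with Benjamini-Hochberg adjusted p-values over all genes and a threshold of 0.05. Missing values were left out of a gene's fit. Ovary and testis ratios were compared in 1 limma fit over both groups. The code was tested on simulated data. A p-value here covers only array-to-array spread, possibly technical, and precision is limited by having 5 arrays. The members and gene lists were chosen with earlier results of these data known.

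Named genes are the 15 largest in each direction with values on at least 4 arrays and 1 sign, up to 4 called members of each list and direction, all direction and steroid genes, and the 6 largest differences from testis in each direction. Others are said to be chosen after their values were seen. Alternatives covered centring, scaling, the minimum of values, probe summary, channel order, runs of array numbers and single arrays left out.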

Additional observations from a re-analysis of the deposited data

Results flagged for a closer look

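Of the 177 named genes with 4 or 5 values, 8 (4.52%) had 1 array far from the others by Dixon's criterion, which chance alone meets in about 1 in 20 groups. Replicate 2 stood apart for Fkbp5 at 0.24 (others 2.03 to 2.60), Gata4 at 0.79 (others 2.17 to 2.62) and Hbb-b1 at 2.65 (others -0.46 to 0.32). Replicate 4 stood apart for Eif3e at -0.26 (others -1.37 to -1.12), Fgfr1 at -2.04 (others -0.95 to -0.66) and Mcm2 at -2.14 (others -1.09 to -0.96). Replicate 1 did so for Hoxb8 at -5.85 (others -2.66 to -1.69) and replicate 3 for Nobox at -0.45 (others 0.23 to 0.44).

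The ratio to the reference differed between ovary and testis for 2388 genes by a test of the difference in limma. The largest named differences in favour of ovary were 5.03 for Nr5a2, 4.80 for Krt19, 3.94 for Plet1, 3.80 for Oas1d, 3.78 for Sgk1 and 3.69 for Uba3. Those in favour of testis were -5.41 for Rimbp3, -5.40 for Ccdc136, -5.23 for Tekt2, -5.23 for Phf7, -4.97 for Wdr62 and -4.96 for Spata24.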

How the results depend on the processing

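Leaving out 1 replicate gave between 511 and 950 higher genes, between 541 and 890 lower genes, between 849 and 1655 higher probes and between 788 and 1443 lower probes, with the fewest of each without replicate 5. It gave between 1923 and 2405 genes that differ between ovary and testis. Replicates 1 and 2 alone gave 50 higher and 17 lower genes and 273 higher and 153 lower probes. Replicates 4 and 5 alone, also a pair, gave 881 higher and 807 lower genes and 1718 higher and 1393 lower probes, so which arrays are used matters; the cause was not tested. A single fit over all 21 arrays, which tests 4465 genes because it asks for values in every group, gave 426 higher and 598 lower genes and 685 higher and 987 lower probes. Under centring on other probes, scaling, quantile normalization, other minimums of values, other probe summaries, channel order, robust eBayes, and runs as a random block, the counts over all genes and all probes stayed within 1.5 times, while counts of single lists could move further. Of the 1910 called genes, 1672 were also called with 1 probe per gene, 1671 in the same direction. In the other settings every shared call had the same direction. Hmgcs1 was at -0.02 with values on all 5 arrays and also -0.02 with 1 probe per gene, and Rps6 was at -0.30 as the median over its probes, because their probes differ. The correlation within runs of array numbers was estimated at -0.089. No paired analysis was possible because the labels give the groups no replicate numbers to share. The runs of array numbers hold both ovary and testis arrays, and a fit with the run as a fixed block, chosen after seeing the data, called 2526 of 6168 genes between the gonads. Of the 2379 of these called without the block 2273 were called with it, all in the same direction. The arrays give no intensities here, so signal over background is unknown.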
